A study of Homo sapiens with 47 samples.

Results

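The response of microRNAs (miRNAs) to 1% O2 or less was compared between PC-3 and 22Rv1, both human lines of prostate cancer, by testing 1 quantity: the hypoxia effect in PC-3 minus that in 22Rv1. The comparison took every library of the 1, 0.5, 0.2 and 0% O2 levels and of their normoxia controls, 31 of the 47 libraries of the study, 16 from PC-3 and 15 from 22Rv1. PC-3 is labelled as coming from a bone metastasis, and 22Rv1 as a primary tumour line derived from the CWR22R xenograft. PC-3 lacks a functional androgen receptor and 22Rv1 expresses one. Exponentially growing cells of each line were held for 24 h in a hypoxia chamber at the stated O2 level, the 0% level being anoxia. Each level of each line had its own normoxia (air) control. There were 2 libraries in each of the 16 groups, but only 1 library in the group of 22Rv1 controls for 0.2% O2. All cells received the same serum-containing medium, and no group is labelled with a genetic change or a drug. Nothing in the labels says that replicates were separate cultures, and p-values therefore measure only how these samples spread, possibly for technical reasons.

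A miRNA is made from a hairpin whose arms, named 5p and 3p, can each yield a mature RNA. Usually 1 arm, the guide, is loaded into an Argonaute protein and kept, and the other, the passenger, is degraded. The seed, which lies near the 5′ end of the mature RNA, pairs with target messenger RNAs and lowers their stability and translation. In low oxygen, hypoxia-inducible factor (HIF) is stabilised and switches on genes for glycolysis and angiogenesis, and miR-210 is the miRNA best known as its direct target.

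The mature sequences of miRNAs on which the results below turn are given here to show that the responses that differed did not belong to 1 seed family. They are RefSeq sequences (GRCh38.p14), written 5′ to 3′ with the seed, bases 2 to 8, in capitals. miR-210-3p and miR-190a-5p were not called and are shown beside the arm of the same hairpin and the relative with the same seed.
miR-210-5p: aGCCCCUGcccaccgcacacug
miR-210-3p: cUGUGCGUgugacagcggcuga
miR-27a-5p: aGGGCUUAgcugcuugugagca
miR-27b-5p: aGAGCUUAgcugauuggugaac
miR-181a-3p: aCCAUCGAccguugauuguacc
miR-181a-2-3p: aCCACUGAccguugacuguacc
miR-26b-3p: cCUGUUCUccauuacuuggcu
miR-582-3p: uAACUGGUugaacaacugaacc
miR-128-3p: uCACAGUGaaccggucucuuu
miR-615-3p: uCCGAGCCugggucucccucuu
miR-152-5p: aGGUUCUGugauacacuccgacu
miR-190b: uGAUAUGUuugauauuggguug
miR-190a-5p: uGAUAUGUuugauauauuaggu
Sequences were matched for 15 of the 16 miRNAs called below, and these had 15 different seeds.

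Library totals ran from 1930784 to 3571778 counts (median 2651777), and 597 of 1006 table entries had enough counts to be tested. A pair of 22Rv1 hypoxia libraries stood apart. Replicate 1 of the 0.5% level lay 4.25 median absolute deviations from the median of its line on the first principal component, and 20.6% of its counts were miR-191-5p, against 12.8 to 18.3% in the other 22Rv1 hypoxia libraries. Replicate 2 of the 0.2% level lay among the normoxia libraries on that axis, and the chi-square between the replicates of its group was 148 per degree of freedom. The scaling factors of the trimmed mean of M values (TMM) also moved with treatment in 22Rv1, with medians of 1.09 in hypoxia and 1.26 in normoxia, and hardly in PC-3, with 0.856 and 0.865. Of 8 prostate epithelial marker entries, 6 averaged at least 10 CPM (each count divided by its library's TMM-scaled total) in 22Rv1, and 5 (normoxia) or 6 (hypoxia) did so in PC-3, but the lines held different ones. The epithelial miR-141-3p and miR-200c-3p averaged 9582 and 19767 CPM in 22Rv1 normoxia and only 8.04 and 21.8 CPM in PC-3 normoxia. PC-3 normoxia held miR-200b-3p at 6444 CPM and miR-205-5p at 1428 CPM, against 48.2 and 9.23 CPM in 22Rv1. The summed level of 8 smooth muscle or stromal marker entries ran from 145 to 596 CPM in 22Rv1 hypoxia and from 129 to 211 CPM in its controls, and from 26.1 to 46.5 and 23.2 to 42.2 CPM in PC-3. miR-143-3p alone reached 525 CPM in 22Rv1 hypoxia, and miR-199a-3p and miR-199b-3p, which have the same values, both enter the sum. For 8 blood or serum marker entries the summed level ran from 795 to 2908 CPM in 22Rv1 hypoxia and 1336 to 1579 CPM in its controls, and from 235 to 355 and 288 to 403 CPM in PC-3. Nearly all of that sum was miR-486-5p, with means of 1692 and 1451 CPM in 22Rv1 hypoxia and normoxia and 288 and 321 CPM in PC-3. The highest value of any other blood or serum entry was 7.20 CPM. None of these 16 entries was at 0 throughout a group, and the part of these RNAs in the results was not tested.

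In the fit without pairing, the lines differed at 1% O2 or less in 16 miRNAs. Of these, 15 had the more positive hypoxia effect in 22Rv1. For 11 of the 16 the other arm was tested too. Among these 11, 9 were the less abundant arm (81.8%, against 50.5% of all entries with both arms tested). The fit with libraries paired by number called 89 (14.9%), abundant guide arms among them. The line difference, which is the log2 hypoxia effect in PC-3 minus that in 22Rv1 averaged over the 4 levels, passed an adjusted p of 0.05 for 16 of 597 miRNAs (2.68%; edgeR quasi-likelihood test with Benjamini-Hochberg adjustment). In 15 of them (2.51% of those tested) the effect was more positive in 22Rv1, and in 1, miR-26b-3p (0.168%), it was more positive in PC-3. In 12 of the 16 the fitted effect was below 0 in PC-3 and above 0 in 22Rv1, against 154 of 597 (25.8%) among all miRNAs tested. In 3 it was above 0 in both lines and larger in 22Rv1 (miR-210-5p, miR-4671-3p and miR-27a-5p). The size of the line difference ran from 0.53 to 2.41 among the 16, and an unadjusted p below 0.05 was reached by 108 miRNAs.

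Fitted effects were more often the larger in 22Rv1. The median size of the log2 effect over all 597 miRNAs was 0.22 in 22Rv1 and 0.14 in PC-3, and the 22Rv1 effect was the larger for 371 of them (62.1%) and for 12 of the 16 called. The median standard error of these effects was 0.15 in 22Rv1 and 0.14 in PC-3, so many of the effects are no larger than their error. Both errors come from a fit that takes the spread of a miRNA as equal in the lines. They do not show which line varied more. The chi-square between replicates, per degree of freedom, was 148 and 49.1 in 22Rv1 hypoxia at 0.2 and 0.5% O2. It was 15.3 to 27.5 in the other 22Rv1 groups with a replicate and 15.5 to 30.0 in PC-3 groups. Across miRNAs the effects of the lines correlated weakly, with Pearson's r = 0.196 and Spearman's rho = 0.229 over 597 miRNAs, which share libraries and are not independent replicates.

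**Figure D1:**
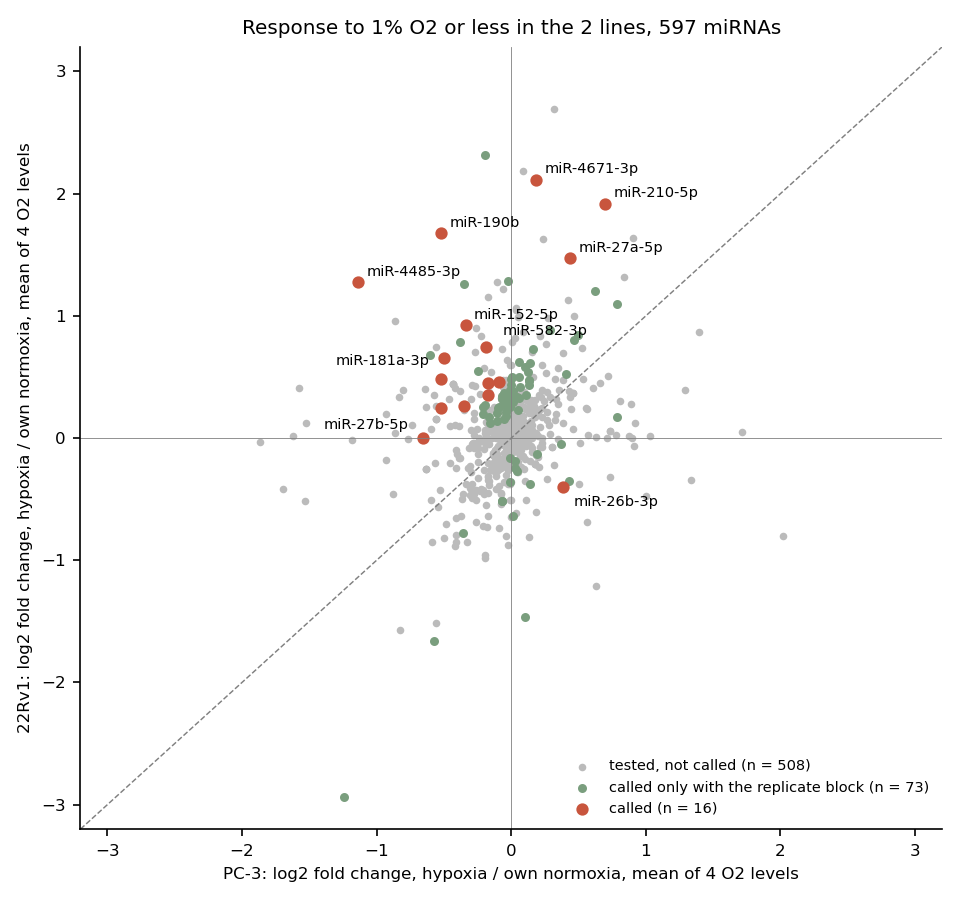
Log2 hypoxia effect in 22Rv1 (vertical axis) against that in PC-3 (horizontal axis), each the mean of the 1, 0.5, 0.2 and 0% O2 levels, for 597 miRNAs. Red points are the 16 called miRNAs, green points the 73 called only with the replicate block, and grey points the other 508; points above the dashed line of equal effects have the more positive effect in 22Rv1, as 15 of the 16 do.

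The number of calls depended on the fit and on single libraries. Hypoxia and control libraries of the same number deviated together from their group means, and with these pairs as a block 89 miRNAs were called (14.9%; 18 more positive in PC-3, 3.02%, and 71 in 22Rv1, 11.9%), the 16 among them. The blocked fit was run with TMM scaling only, so how its calls depend on the scaling was not tested. The second 0.2% hypoxia library of 22Rv1 has no partner and adds nothing to the blocked fit. Without a block, 34 miRNAs were called when that library was left out, 30 without the second 22Rv1 hypoxia library of the 0.5% level, 8 without the first 22Rv1 hypoxia library of the 1% level, 8 without the second PC-3 hypoxia library of the 1% level, 10 without the first PC-3 control of the 1% level and 9 without the first PC-3 control of the 0% level. Scaling by library totals alone gave 8 calls, and leaving out the 0% level gave 2, miR-210-5p and miR-582-3p.

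miR-210-5p, the less abundant arm of the HIF target miR-210 (chr11:568150-568171, minus strand, in an intron of the long non-coding RNA gene MIR210HG), had the larger hypoxia effect in 22Rv1. In PC-3 the 8 normoxia libraries held 47.5 to 93.3 CPM (median 79.4) and the 8 hypoxia libraries 96.7 to 159 CPM (median 118). In 22Rv1 the 7 normoxia libraries held 77.1 to 104 CPM (median 82.8) and the 8 hypoxia libraries 223 to 503 CPM (median 312). The value of 503 CPM belonged to the first 0.5% library, which stood apart, and the next highest was 390 CPM. The control ranges of the lines overlapped, and every 22Rv1 hypoxia library lay above every PC-3 hypoxia library. The level was higher in hypoxia in 8 of 8 PC-3 pairs and 7 of 7 22Rv1 pairs, with fitted folds of 1.62 and 3.78. The line difference was -1.22 ± 0.18 (log2 ± SE; adjusted p = 8.67e-05), and all 7 log2 pair ratios of 22Rv1 (1.47 to 2.49) lay above all 8 of PC-3 (0.29 to 1.44). It was called under each of 16 alternative analyses and each of 30 omissions of 1 library.

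The guide arm, miR-210-3p, showed a smaller gap. Its PC-3 libraries held 454 to 745 CPM (median 673) in normoxia and 982 to 1234 CPM (median 1141) in hypoxia. Its 22Rv1 libraries held 1018 to 1403 CPM (median 1230) in normoxia and 2327 to 2838 CPM (median 2636) in hypoxia, so within each line hypoxia and normoxia did not overlap. The line difference of -0.31 ± 0.12 did not pass the test (adjusted p = 0.143), and passed it with the replicate block (-0.30 ± 0.09, adjusted p = 0.0123). The second 0.2% hypoxia library of 22Rv1, which lay among the normoxia libraries on the first principal component, held 2777 CPM of miR-210-3p, within the range of the other hypoxia libraries.

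miR-27a-5p and miR-27b-5p are the passenger arms of the paralogous clusters miR-23a/27a/24-2 on chromosome 19 and miR-23b/27b/24-1 on chromosome 9. miR-27a-5p (chr19:13836487-13836508, minus strand, in an exon of the antisense RNA gene AC020916.1) held 107 to 134 CPM (median 118) in PC-3 normoxia and 118 to 197 CPM (median 166) in hypoxia. In 22Rv1 it held 20.6 to 30.7 CPM (median 26.0) in normoxia and 34.5 to 106 CPM (median 71.7) in hypoxia. The 22Rv1 hypoxia libraries all lay above their controls, whereas the PC-3 ranges overlapped. Fitted folds were 1.36 in PC-3 and 2.77 in 22Rv1, the line difference was -1.03 ± 0.18 (adjusted p = 0.000515), and the pair ratios of the lines did not overlap. The guide arm miR-27a-3p (median 8010 and 8912 CPM in PC-3 normoxia and hypoxia, 1322 and 1780 CPM in 22Rv1) had a line difference of -0.11 ± 0.14 (adjusted p = 0.808).

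For miR-27b-5p (chr9:95085463-95085484, plus strand, in an intron of C9orf3) the line difference came from the PC-3 side. PC-3 held 96.6 to 146 CPM (median 122) in normoxia and 60.0 to 93.3 CPM (median 80.8) in hypoxia, lower in 8 of 8 pairs and without overlap. In 22Rv1 the ranges of 36.6 to 56.6 CPM (median 42.0) and 28.6 to 59.7 CPM (median 42.9) overlapped, and 4 of 7 pairs were higher. The line difference was -0.66 ± 0.17 (adjusted p = 0.0292). It lost the call in 5 of 16 alternatives and 11 of 30 omissions of 1 library. Of the 10 tested entries of the miR-23/27/24 clusters these were the 2 called (20%, against 2.68% of all tested), both more negative in PC-3, and 5 were called with the replicate block (50%, against 14.9%). Of the 10, 9 had a negative line difference with a median of -0.24, against a median of -0.07 over all 597.

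The miR-181a hairpins, which carry the same guide arm and different passenger arms, differed between the lines in both passengers. miR-181a-3p, from MIR181A1 (chr1:198859069-198859090, minus strand, in an intron of MIR181A1HG), held 317 to 432 CPM (median 381) in PC-3 normoxia and 203 to 378 CPM (median 264) in hypoxia. In 22Rv1 it held 13.4 to 25.5 CPM (median 16.5) and 23.0 to 40.7 CPM (median 24.8). The ranges overlapped within each line, yet the level was lower in hypoxia in 8 of 8 PC-3 pairs and higher in 6 of 7 22Rv1 pairs. The line difference was -1.15 ± 0.21 (adjusted p = 0.000784) from effects of -0.50 in PC-3 and 0.65 in 22Rv1. miR-181a-2-3p, from MIR181A2 on chromosome 9 (chr9:124692518-124692539, plus strand, in an intron of MIR181A2HG), had medians of 219 and 192 CPM in PC-3 and 61.6 and 91.0 CPM in 22Rv1. It was lower in 8 of 8 PC-3 pairs and higher in 7 of 7 22Rv1 pairs, with a line difference of -0.62 ± 0.16 (adjusted p = 0.0314), a call lost in 16 of 30 omissions. The shared guide miR-181a-5p, with medians of 13215 and 13668 CPM in PC-3 and 2993 and 3405 CPM in 22Rv1, had a line difference of -0.08 ± 0.17 (adjusted p = 0.897). Of 8 tested miR-181 entries 2 were called (25%, against 2.68% of all tested), and 4 with the replicate block (50%, against 14.9%).

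miR-26b-3p, the passenger arm of miR-26b (chr2:218402692-218402712, plus strand, in an intron of the phosphatase gene CTDSP1), went the other way. In PC-3 it held 137 to 185 CPM (median 160.3) in normoxia and 168 to 251 CPM (median 211) in hypoxia, higher in 8 of 8 pairs. In 22Rv1 it held 165 to 230 CPM (median 198) in normoxia and 96.2 to 274 CPM (median 153) in hypoxia, lower in 7 of 7 pairs. The highest 22Rv1 hypoxia value, 274 CPM, belonged to the unpaired 0.2% library, and the other 7 hypoxia libraries did not exceed 176 CPM. Its line difference was 0.79 ± 0.15 (adjusted p = 0.00146) and 0.88 ± 0.10 with the replicate block. The guide arm miR-26b-5p had medians of 10266 and 11358 CPM in PC-3 and 13702 and 17194 CPM in 22Rv1, higher in hypoxia in every pair of both lines, with a line difference of -0.14 ± 0.13 (adjusted p = 0.672). Within 1 hairpin, then, only the passenger's line difference passed the test. That of the guide was not told apart from 0, and its sign turned to 0.00492 with scaling by library totals.

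**Figure D2:**
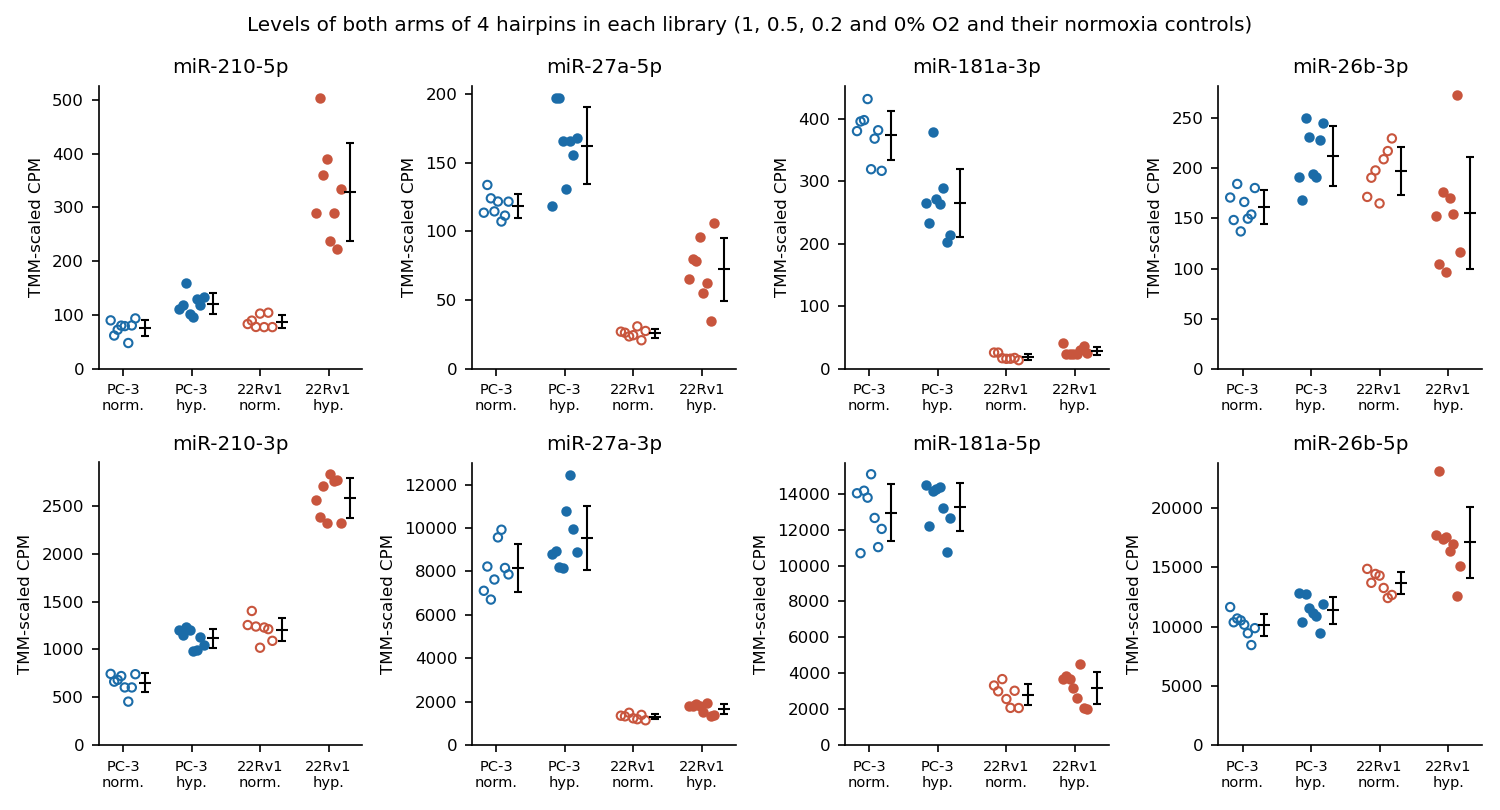
TMM-scaled CPM (vertical axes, linear from 0) of both arms of miR-210, miR-27a, miR-181a and miR-26b in each library of the 4 levels, by line and treatment; points are libraries, bars the mean and SD of 7 or 8 libraries. The called arms are in the upper row and the guide arms in the lower row. In 22Rv1 hypoxia miR-210-5p reaches 503 CPM in the first 0.5% library, which stood apart, and at most 390 CPM in the others, against at most 159 CPM in PC-3.

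miR-582-3p (chr5:59703630-59703651, minus strand, in an intron of PDE4D, which encodes a phosphodiesterase for cyclic AMP) held 111 to 160.2 CPM (median 133) in PC-3 normoxia and 95.2 to 165 CPM (median 115) in hypoxia. In 22Rv1 it held 34.8 to 56.9 CPM (median 47.2) and 59.1 to 90.0 CPM (median 76.8), without overlap and higher in 7 of 7 pairs. The PC-3 ranges overlapped, with 6 of 8 pairs lower. The line difference was -0.93 ± 0.16 (adjusted p = 0.000427) and was called in each alternative and each omission of 1 library. Here the called arm was the more abundant one, and miR-582-5p had a line difference of -0.33 ± 0.25 (adjusted p = 0.607).

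A further 3 miRNAs with at least 10 CPM in each line had smaller line differences. miR-128-3p, a miRNA abundant in brain and made from hairpins in introns of R3HDM1 on chromosome 2 and ARPP21 on chromosome 3, held 609 to 882 CPM (median 717) in PC-3 normoxia and 590 to 819 CPM (median 677) in hypoxia. In 22Rv1 it held 327 to 400.0 CPM (median 356) in normoxia and 358 to 686 CPM (median 447) in hypoxia, higher in 7 of 7 pairs. Its line difference was -0.54 ± 0.15 (adjusted p = 0.0420), a call held in 8 of 16 alternatives and 8 of 30 omissions. miR-615-3p (chr12:54034010-54034031, plus strand, in introns of HOXC4 and HOXC5) had medians of 23.6 and 17.3 CPM in PC-3 and 159 and 185 CPM in 22Rv1, lower in 7 of 8 PC-3 pairs and higher in 7 of 7 22Rv1 pairs (line difference -0.62 ± 0.16, adjusted p = 0.0314; held in 17 of 30 omissions). miR-21-3p, the passenger arm of the abundant miR-21, was the most abundant called miRNA in PC-3, with medians of 12207 and 11061 CPM there and 556 and 668 CPM in 22Rv1. Its line difference was -0.53 ± 0.13 (adjusted p = 0.0241; held in 12 of 16 alternatives and 24 of 30 omissions), and that of miR-21-5p was -0.16 ± 0.12 (adjusted p = 0.607). Without the 0% level miR-21-3p was not called.

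The remaining 6 called miRNAs averaged below 10 CPM in at least 1 line and were named after their values were seen. miR-190b, in an intron of the tropomyosin gene TPM3 (chr1:154193712-154193733, minus strand), held 18.6 to 33.3 CPM (median 25.5) in 22Rv1 normoxia and 48.9 to 99.2 CPM (median 76.5) in hypoxia, without overlap. In PC-3 it held only 1.26 to 3.88 CPM (median 3.05) and 0.862 to 3.58 CPM (median 2.25), so the PC-3 effect of -0.52 ± 0.34 rests on few counts. For miR-190b the line difference was -2.20 ± 0.37 (adjusted p = 0.000427). miR-190a-5p, which has the same seed and lies in an intron of TLN2, had a line difference of 0.10 ± 0.18 (adjusted p = 0.881), with effects of -0.31 in PC-3 and -0.41 in 22Rv1. miR-29b-1-5p, the passenger arm of miR-29b-1, was the reverse case in abundance, with medians of 117 and 83.5 CPM in PC-3 and 5.70 and 6.75 CPM in 22Rv1, lower in 8 of 8 PC-3 pairs (line difference -0.77 ± 0.20, adjusted p = 0.0326; held in 6 of 15 alternatives and 13 of 30 omissions).

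miR-152-5p, the passenger arm of miR-152 in an intron of COPZ2 (chr17:48037210-48037232, minus strand), had medians of 8.57 and 6.99 CPM in PC-3 and 16.7 and 34.8 CPM in 22Rv1, with a line difference of -1.26 ± 0.31 (adjusted p = 0.0218). miR-4671-3p, in an intron of SLC35F3, held 3.89 to 9.50 CPM in PC-3 normoxia and 5.21 to 10.0 CPM in hypoxia. In 22Rv1 it was at most 2.29 CPM in normoxia and 3.16 to 11.1 CPM in hypoxia, and 1 of the 7 control libraries held no count, which allows up to 0.933 CPM (3 counts; counting error only). Its line difference was -1.93 ± 0.42 (adjusted p = 0.00728). miR-4485-3p was the least abundant, with medians of 1.99 and 0.888 CPM in PC-3 and 1.64 and 3.69 CPM in 22Rv1, a line difference of -2.41 ± 0.52 (adjusted p = 0.00710), and a locus inside an exon of MTRNR2L8, a nuclear gene resembling mitochondrial ribosomal RNA, so its reads cannot be told apart from fragments of that RNA. miR-1249-3p, in an intron of KIAA0930, had medians of 6.86 and 5.09 CPM in PC-3 and 5.64 and 7.87 CPM in 22Rv1 (line difference -1.0 ± 0.28, adjusted p = 0.0489; held in 9 of 30 omissions).

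**Figure D3:**
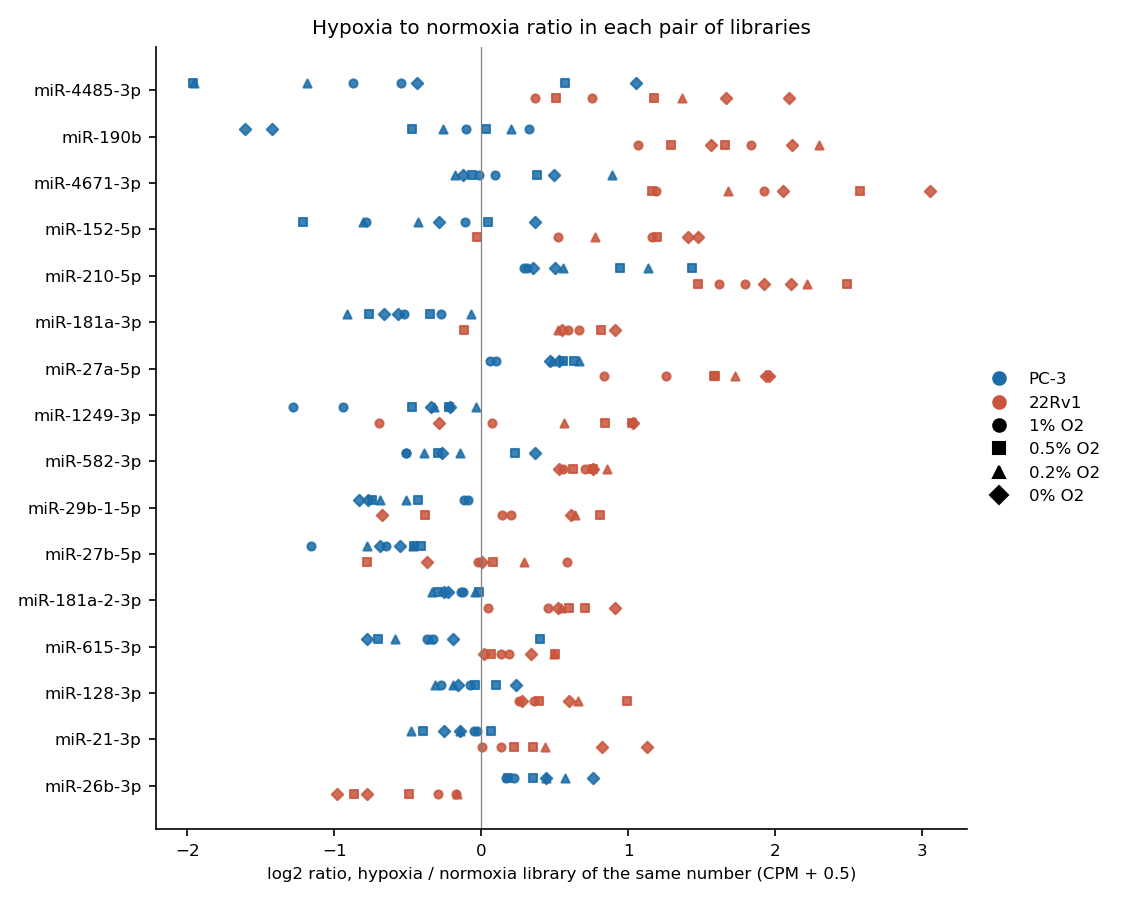
Log2 ratio of hypoxia to the normoxia library of the same number (horizontal axis, CPM plus 0.5), for the 16 called miRNAs, in 8 PC-3 pairs (blue) and 7 22Rv1 pairs (red), with O2 level by symbol. In 8 of the 16 the lines do not overlap, and miR-26b-3p at the bottom has the PC-3 pairs above 0 and the 22Rv1 pairs below it.

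Among the 16, the pair ratios of the lines did not overlap in 8, against 25 of 597 among all miRNAs tested (4.19%; 18 with 22Rv1 above and 7 with PC-3 above). These ratios come from the libraries used in the test and add no independent evidence. Ratios were above 0 in every 22Rv1 pair for 10 of the 16, and below 0 in every PC-3 pair for 5, namely miR-181a-3p, miR-181a-2-3p, miR-27b-5p, miR-29b-1-5p and miR-1249-3p.

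Where the other arm was tested, the calls of the fit without pairing fell mostly on the less abundant arm of a hairpin. The share of such arms was not counted among the 89 calls of the paired fit, which included abundant guide arms. The pattern is therefore stated for the fit without pairing only. For 11 of the 16 the other arm was also tested, and in 9 of these (81.8%) the called arm was the less abundant one in both lines, against 167 of 331 entries (50.5%) among all tested with their other arm tested. miR-582-3p and miR-615-3p were the exceptions. In 0 of the 11 was the other arm called too, and in 11 of 11 its line difference was nearer 0, with the same sign in 9. Here miR-181a-5p counts as the other arm of both miR-181a-3p and miR-181a-2-3p. It is made from MIR181A1 and MIR181A2, and miR-29b-3p from MIR29B1 and MIR29B2, so their reads cannot be assigned to either hairpin. Over all 331 entries the other arm was the nearer in 170 (51.4%), but the called arms had been chosen for the size of their own difference. The largest difference of another arm was that of miR-152-3p, -0.57 ± 0.23 (adjusted p = 0.178), whose 22Rv1 median went from 323 to 509 CPM and whose PC-3 median went from 133 to 143 CPM; with the replicate block it was called (-0.65 ± 0.10, adjusted p = 8.05e-06). The difference between the arms of a hairpin was not itself tested.

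**Figure D4:**
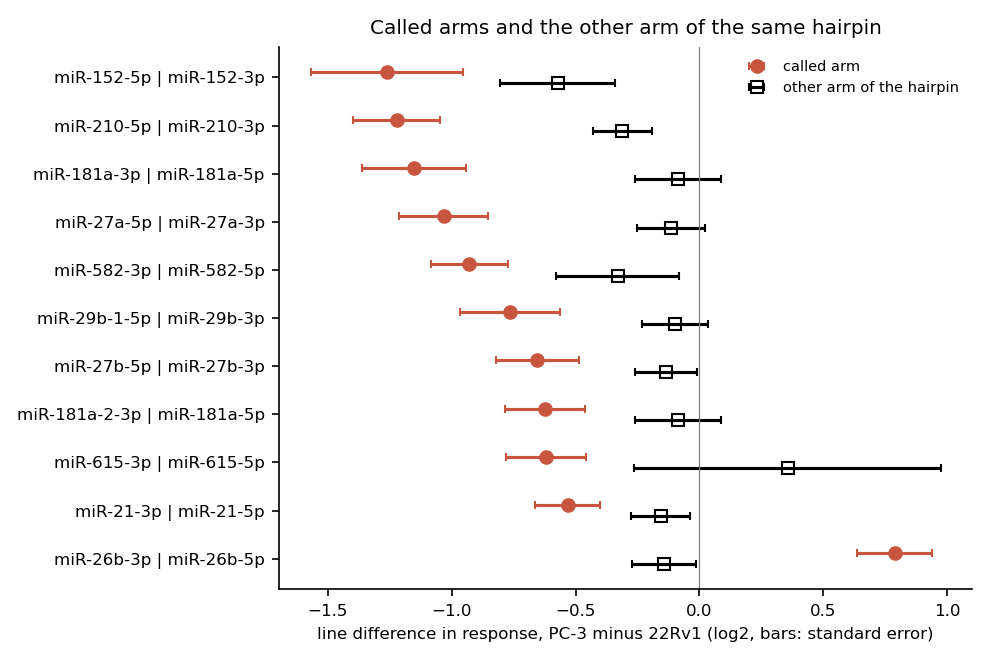
Line difference in response (PC-3 minus 22Rv1, log2, horizontal axis) of 11 called arms (red circles) and of the other arm of the same hairpin (black squares), with standard errors as bars. The black squares lie between -0.57 and 0.36, each nearer 0 than the called arm. The same miR-181a-5p value is drawn for both miR-181a passengers, and miR-181a-5p and miR-29b-3p are each made from more than 1 hairpin.

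The 4 levels gave line differences of the same sign. All 16 called miRNAs had the same sign at 1, 0.5, 0.2 and 0% O2, against 25.5% of the 597 tested. These are the levels that the test averages, so the shared sign adds no independent evidence. The difference was farthest from 0 at 0% in 8 of them, at 0.2% in 4 and at 0.5 and 1% in 2 each. For miR-210-5p it was -1.41 at 1%, -0.85 at 0.5%, -1.04 at 0.2% and -1.58 at 0%, with standard errors of 0.34 to 0.38, and the 22Rv1 effect stayed between 1.72 and 2.03 while the PC-3 effect ran from 0.30 to 1.18. miR-21-3p ran from -0.11 ± 0.26 at 1% to -1.18 ± 0.26 at 0%, and miR-26b-3p was at 0.44 ± 0.29, 0.92 ± 0.30, 0.31 ± 0.32 and 1.48 ± 0.29 from 1 to 0%. miR-190b was farthest from 0 at 0%, with -3.73 ± 0.74, where PC-3 was at 0.862 and 0.874 CPM in hypoxia against 3.65 and 3.18 CPM in its controls. The test of a change between levels called 0 of 597 miRNAs (0%) by edgeR, with 22 at an unadjusted p below 0.05 and a lowest adjusted p of 0.713. DESeq2 also called 0, with 18 at an unadjusted p below 0.05, and the blocked fit 0 with 48.

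**Figure D5:**
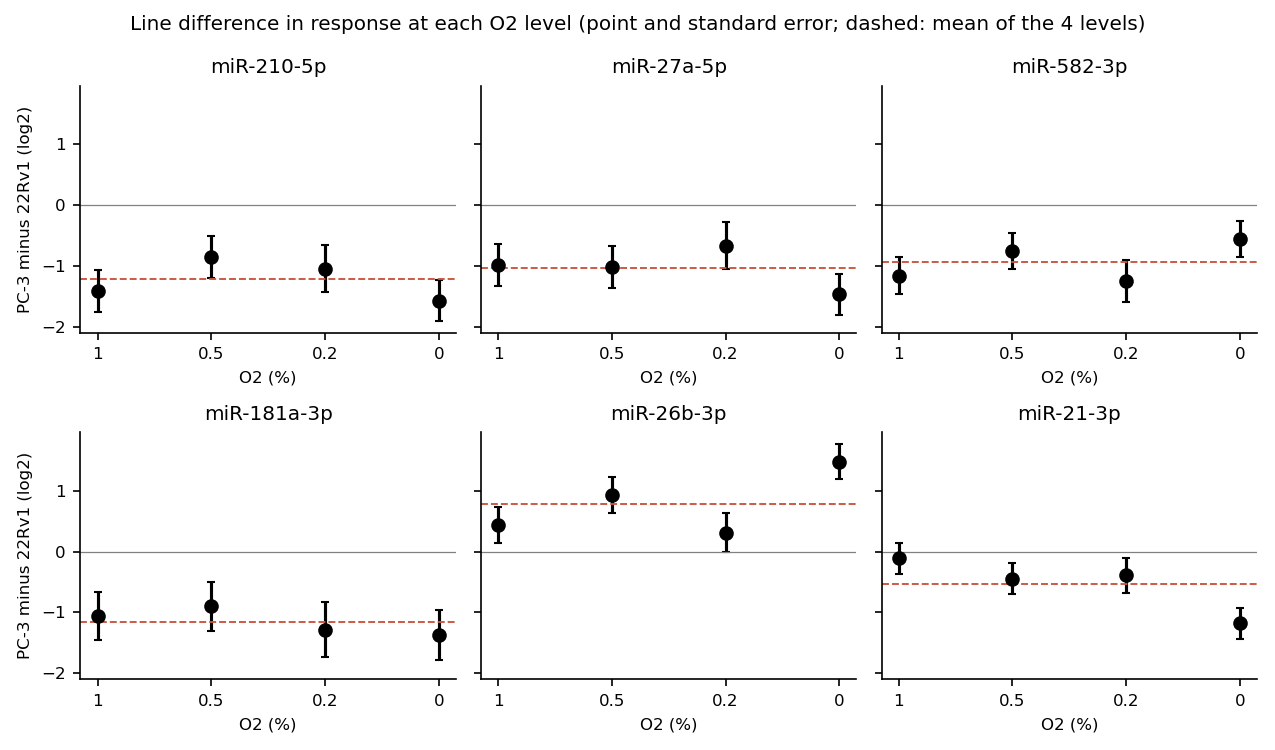
Line difference in response (PC-3 minus 22Rv1, log2, vertical axis) of 6 called miRNAs at 1, 0.5, 0.2 and 0% O2 (horizontal axis, evenly spaced), with standard errors; the dashed red line is the mean of the 4 levels. The sign is the same at every level for each of the 6, and miR-26b-3p and miR-21-3p lie farthest from 0 at 0% O2.

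The 5 and 2% levels, whose 16 libraries do not enter the comparison above, gave the same sign for 15 of the 16 called miRNAs, against 333 of 597 (55.8%) over all tested, and a smaller size for 15 of 16, against 306 of 597 (51.3%). The 16 were chosen for their size at 1% or less, which by itself favours a smaller size elsewhere. miR-210-5p was at -0.35 ± 0.25 there, miR-27a-5p at -0.45 ± 0.25, miR-582-3p at -0.41 ± 0.20 and miR-190b at -0.46 ± 0.53. miR-181a-3p was nearly as different at 5 and 2% (-0.97 ± 0.31) as at 1% or less, and miR-4485-3p was at -2.84 ± 0.94. miR-1249-3p had the opposite sign, 0.44 ± 0.38. The test of the difference between the level ranges called 0 of 613 miRNAs (0%) by edgeR, with 30 at an unadjusted p below 0.05, and 0 by DESeq2, with 25. With the replicate block it called 11, 6 more positive and 5 more negative at 1% or less, among them miR-26b-3p (0.81 ± 0.17, adjusted p = 0.00924), miR-210-5p (-0.92 ± 0.22, adjusted p = 0.0175) and miR-190b (-2.05 ± 0.56, adjusted p = 0.0415).

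The other 8 of these 11 were not called in the unblocked comparison at 1% or less. They were miR-10b-5p (-0.84 ± 0.16), miR-191-5p (-0.65 ± 0.16) and miR-10a-5p (-0.62 ± 0.16) on the negative side. On the positive side were miR-183-3p (0.77 ± 0.17), miR-17-3p (0.74 ± 0.18) and miR-4454 (0.80 ± 0.20). miR-15a-5p (0.69 ± 0.18) and miR-194-5p (0.74 ± 0.19) were positive too. Each value is the line difference at 1% or less minus that at the oxygen levels above 1%. In the fit without the block, these parts had opposite signs for all 8. The parts were -0.38 and 0.36 for miR-10b-5p, 0.24 and -0.42 for miR-17-3p, and 0.54 and -0.04 for miR-183-3p. All but miR-17-3p were also called at 1% or less with the replicate block.

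Of 38 tested entries of miRNAs that the literature reports as induced by hypoxia (both arms counted), 6 passed the test of a line difference (15.8%, against 2.68% of all tested), in a list written with earlier results of these data known. They were miR-26b-3p toward PC-3, and miR-210-5p, miR-181a-3p, miR-181a-2-3p, miR-27a-5p and miR-27b-5p toward 22Rv1. All of these but the 5p arms of miR-210 and miR-27a and miR-26b-3p had a PC-3 effect below 0, and miR-26b-3p had a 22Rv1 effect below 0. The median effect of the 38 was 0.05 in PC-3 and 0.24 in 22Rv1, against -0.01 and 0.06 over all 597, and 32 did not pass the test, among them miR-107 (0.15 ± 0.10), miR-24-3p (-0.03 ± 0.11) and miR-192-5p (-0.02 ± 0.13). With the replicate block 13 were called (34.2%, against 14.9% of all tested), 1 toward PC-3 and 12 toward 22Rv1.

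The other lists are read against the same 2.68% of all miRNAs tested, at which a list of these sizes would hold about 0 or 1 call. Of 23 androgen receptor-linked entries 2 were called (8.7%), miR-27a-5p and miR-21-3p, both more positive in 22Rv1. The miR-26 family had 1 of 5, miR-29 1 of 7, miR-148 with miR-152 1 of 6 and miR-190 1 of 2. No call was made among 22 entries of miR-17-92 and its paralogues, 19 of let-7/miR-98, 11 of miR-30, 9 of miR-200 with miR-141 and miR-429, 13 of miR-15/16, 4 of miR-221 with miR-222, 6 of miR-183 with miR-96 and miR-182 and 6 p53-regulated entries. In the last 8 lists the smallest adjusted p values belonged to miR-30b-3p (-0.58 ± 0.17, adjusted p = 0.0594) and miR-200b-5p (adjusted p = 0.0550), the latter at no more than 2.19 CPM in any 22Rv1 library. In the blocked fit, which called 3.02% of all tested toward PC-3 and 11.9% toward 22Rv1, the calls toward PC-3 and toward 22Rv1 numbered 1 and 3 in miR-17-92, 1 and 0 in let-7/miR-98, 0 and 4 in miR-30, 0 and 2 in miR-200, 2 and 0 in miR-15/16, 1 and 2 in miR-183 with its cluster and 2 and 0 in the p53-regulated list. In the androgen receptor-linked list they numbered 0 and 4. That is 17.4% of its 23 entries, near the 14.9% of all tested.

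The 73 miRNAs called only with the replicate block included abundant guide arms, named here after their values were seen, with 64 of them at 10 CPM or more in each line (14 more positive in PC-3, 50 in 22Rv1). miR-10b-5p had the smallest adjusted p (blocked line difference -0.64 ± 0.09, adjusted p = 2.10e-06; unblocked -0.43 ± 0.45, adjusted p = 0.747). It was higher in hypoxia in 7 of 7 22Rv1 pairs and 4 of 8 PC-3 pairs, but its 22Rv1 hypoxia libraries spread from 447 to 4995 CPM. miR-19a-3p of the miR-17-92 cluster was at -0.57 ± 0.09 (adjusted p = 2.72e-05), with 22Rv1 medians of 283 and 365 CPM and PC-3 medians of 386 and 388 CPM. miR-30d-5p, with medians of 22773 and 31693 CPM in PC-3 and 20630 and 35418 CPM in 22Rv1, was at -0.37 ± 0.08 (adjusted p = 0.000533) and was higher in hypoxia in every pair of both lines. miR-23a-3p, the guide of the cluster that holds miR-27a, was at -0.38 ± 0.08 (adjusted p = 0.000636).

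On the other side of the blocked comparison, miR-183-3p was at 0.64 ± 0.10 (adjusted p = 9.80e-06), higher in 8 of 8 PC-3 pairs and lower in 7 of 7 22Rv1 pairs. The more abundant arm of that hairpin, miR-183-5p, was called in the opposite direction (-0.38 ± 0.09, adjusted p = 0.00253). So was miR-182-5p of the same cluster (-0.33 ± 0.09, adjusted p = 0.00683). miR-7-5p, a miRNA of neuroendocrine cells, was lower in 7 of 7 22Rv1 pairs (medians 4052 and 2996 CPM) and higher in 5 of 8 PC-3 pairs (0.37 ± 0.09, adjusted p = 0.00228). miR-15a-5p and miR-16-5p, which share a seed, were at 0.38 ± 0.09 and 0.24 ± 0.08 (adjusted p = 0.00403 and 0.0444). Both have a hairpin on chromosome 13, but miR-16-5p is also made from MIR16-2, in an intron of SMC4 on chromosome 3, and its reads cannot be assigned to either locus. Neither was called with the block as replicate number within a line (adjusted p = 0.0736 and 0.189) or with the block and no 0.2% level (0.0559 and 0.396). miR-34a-5p, a p53 target, was at 0.42 ± 0.12 (adjusted p = 0.0153), higher in 6 of 8 PC-3 pairs and lower in 5 of 7 22Rv1 pairs, and it too was not called with the block and no 0.2% level (adjusted p = 0.123). None of the 5 named here as more positive in PC-3 was called without the block, where their adjusted p values ran from 0.0615 to 0.353.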

How the data were processed

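The authors deposited a table of read counts, whole numbers for each mature miRNA (1006 entries, 47 libraries), and a table of CPM that, per the file headers, is TMM-normalised. The submitters' processing notes name FastQC and the genome build hg19, and the aligner and counter were not given in the sources used. Raw reads were not analysed here.

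Counts of the 31 libraries went into edgeR 4.0.16, run in R 4.3.3 (TMM, at least 5 CPM in at least 2 libraries, 1 mean per group, robust quasi-likelihood fit). Benjamini-Hochberg adjustment ran over all 597 miRNAs tested, two-sided, with calls at an adjusted p below 0.05. Effects within a line were not tested. The common biological coefficient of variation was 15.5%, on 15 residual degrees of freedom. Where 22Rv1 had a single control library, at the 0.2% level, its spread was taken to equal that of the rest. The authors' CPM factors, DESeq2 1.42.0 and the other analyses named in the closing section served as alternatives. The code was tested on simulated data.

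Hypoxia and control libraries of 1 number were treated as pairs because their deviations from the group means correlated over 0.1 at every level that had 2 pairs (0.251 to 0.318 in PC-3, 0.131 to 0.188 in 22Rv1). The blocked fit has a term for each pair and so fewer residual degrees of freedom than the 15 of the fit without pairs. Its p-values rest on that smaller number, and 22Rv1 at 0.2% O2 added nothing to its estimate of spread.

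Named miRNAs were up to 12 called per direction, by size, if they reached 10 CPM in each line and kept their sign in 3 or more of the 4 levels, then both arms of miR-210, the other arms of these hairpins, the 2 members of each list with the smallest p, and up to 3 called in each of the other tests. The libraries, lists and rule were chosen with earlier results of these data known. Sequences are from RefSeq (GRCh38.p14; 517 of 597 tested entries matched) and overlapping genes from GENCODE 29 on GRCh38.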

Additional observations from a re-analysis of the deposited data

Results flagged for a closer look

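For 16 miRNAs the hypoxia effect differed between the lines by the test of the difference itself. The line difference (PC-3 minus 22Rv1, log2) was -1.22 for miR-210-5p, -0.93 for miR-582-3p, -2.20 for miR-190b, -1.03 for miR-27a-5p, -1.15 for miR-181a-3p and -2.41 for miR-4485-3p. It was -1.93 for miR-4671-3p, -1.26 for miR-152-5p, -0.53 for miR-21-3p, -0.66 for miR-27b-5p and -0.62 for both miR-615-3p and miR-181a-2-3p. It was -0.77 for miR-29b-1-5p, -0.54 for miR-128-3p and -1.0 for miR-1249-3p, and the 1 positive value was 0.79 for miR-26b-3p.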

How the results depend on the processing

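Against 16 calls for the mean of the 4 levels, the count was 10 with DESeq2 size factors, 8 with scaling by library totals alone, 10 without the 1% level, 27 without the 0.2% level and 2 without the 0% level. With the replicate block it was 89, or 49 with the block as replicate number within a line, both holding all 16. Fits with a block were run with TMM scaling only. Chosen after seeing the data, leaving out both 22Rv1 hypoxia libraries that stood apart gave 37 (15 of the 16 kept), and the replicate block without the 0.2% level gave 66 (14 kept). It stayed within 1.5 times of 16 with the authors' factors (20), no filter (16), at least 10 CPM in each line (12), DESeq2 (24), without the 22Rv1 library apart on the first principal component (19), all 47 libraries (15) and without the 0.5% level (12). The cause of these shifts was not tested. Omitting 1 library gave 8 to 34 calls for the mean, 0 to 1 for the change between levels and 0 to 0 against 5 and 2%. With the replicate block the last comparison gave 11 in place of 0. Scaling by library totals moved the median of all miRNAs by 0.13 (log2).

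Of the 16 named calls, 3 (miR-210-5p, miR-582-3p and miR-4485-3p) held in every alternative that tested them and 7 in every omission of 1 library. miR-4485-3p, the least abundant, was tested in only 14 of the 16 alternatives and held in 26 of 28 omissions. miR-210-5p and miR-582-3p were tested and held in all 16 alternatives and all 30 omissions. Scaling by totals turned 5 uncalled guide arms to 0.00492 (miR-26b-5p), 0.0691 (miR-181a-5p), 0.0331 (miR-27a-3p), 0.0134 (miR-27b-3p) and 0.0273 (miR-29b-3p). miR-143-3p turned to 0.0723 without the 22Rv1 library apart, 0.0988 without the 0.5% level and 0.164 without both libraries that stood apart. Without the 0.5% level miR-181a-5p turned to 0.0203 and miR-1-3p to 0.0888. Over omissions of 1 library miR-615-5p ran from -0.72 to 0.69, miR-181a-5p from -0.18 to 0.0346 and miR-143-3p from -0.68 to 0.0723. Depth limits the 6 called miRNAs below 10 CPM in a line most, since there a library holds few counts of them.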
